A study of Mus musculus with 6 samples.

Results

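The genes described here are Slc15a2 and 9 other mouse genes, Ppp2r2b, Rnf128, Trim2, Cdkl1, Calb1, Klk11, Blnk, Plekhb1 and BC048679, in ovaries sequenced with and without the compound MIT-001. The 10 genes were chosen by their measured level: in each of them both libraries from MIT-001-treated mice stood above all 4 libraries from mice given PBS. This pattern therefore chose the genes and is given here as a description, without a test. All 10 passed the filter on low values, out of 16473 genes tested. Both MIT-001 libraries stood above all 4 PBS libraries in 2490 of those genes (15.1%), so the 10 are a small selection from a large group with the same property. The lower old MIT-001 library exceeded the highest PBS library by 1.34-fold in Plekhb1, the narrowest margin, and by 28.6-fold in Klk11, the widest.

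The ovaries came from BDF1 mice, a hybrid laboratory strain, labelled wild type. The labels give 3 groups of 2 libraries each: mice of 8 weeks given PBS (young PBS), 65-week mice that received PBS (old PBS), and 65-week mice that received MIT-001 at 0.5 mg/kg (old MIT-001). The protocol gives injection into the peritoneal cavity for 7 days for MIT-001 and PBS alike, and the labels do not name the vehicle of MIT-001. The study used 20 young and 40 old mice, but the labels do not tie libraries to animals or say whether ovaries were pooled. The p-values below therefore measure the spread between these libraries only, which may be technical.

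MIT-001 is a small molecule that scavenges reactive oxygen species in mitochondria. Slc15a2 encodes PEPT2, a proton-coupled carrier that brings dipeptides and tripeptides into cells and is best known from the epithelia of kidney tubules, lung and choroid plexus. The ovary is covered by a single layer of surface epithelium and lies against the oviduct, whose lining holds secretory and ciliated cells, so ovarian RNA can include transcripts of both.

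Before the results, the labels were set against marker genes, and the age labels and markers did not go together. The 12 oocyte markers summed to 544 and 564 TPM (an abundance scaled for gene length and for the size of the library) in the libraries labelled old PBS, and to 361 and 40.7 TPM in those labelled young PBS. The 12 granulosa cell markers summed to 8147 and 10203 TPM in old PBS and to 3723 and 3216 TPM in young PBS. The 8 macrophage markers went the other way, at 135 and 157 TPM in old PBS and 805 and 809 TPM in young PBS. In old MIT-001 the sums were 98.9 and 49.9 TPM for oocyte, 2856 and 4156 TPM for granulosa cell and 372 and 349 TPM for macrophage markers. Groups are named as labelled throughout, and each direction holds for the libraries as labelled. Cyp11a1, the first enzyme of steroid hormone synthesis and abundant in ovary, lay between 9021 and 20654 TPM in all libraries. The 8 kidney tubule markers summed to 2.07 to 8.01 TPM, highest in replicate 2 of old MIT-001; 3 of them, Umod, Slc34a1 and Slc22a6, were listed at 0 in all 6 libraries, and 2 passed the filter.

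Slc15a2 (Gene ID 57738) occupies 36750161 to 36785158 of chromosome 16, minus strand, in mm10. Its level was 4.99 and 4.30 TPM in the young PBS libraries, 0.661 and 0.629 TPM in the old PBS libraries, and 24.1 and 30.7 TPM in the old MIT-001 libraries. The 3 groups did not overlap, and the order was old PBS, young PBS, old MIT-001. The mean was 27.4 ± 4.68 TPM (SD, n = 2) in old MIT-001 against 0.645 ± 0.0225 TPM in old PBS, a ratio of 42.5, and the ratio to young PBS was 5.90. On the log2(TPM + 1) scale, which understates the change of genes with low values, these differences were 4.10 ± 0.29 (SE) and 2.32 ± 0.29. The mean read depth over the gene was 58.6 and 69.3 reads per base in the old MIT-001 libraries and only 1.72 and 1.67 in the old PBS libraries.

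BC048679, a protein-coding gene with a clone name on chromosome 7 (81494274 to 81498330, minus strand, Gene ID 210321), had the widest range of the 10. It stood at 6.53 and 0.903 TPM in young PBS, 0.101 and 0.196 TPM in old PBS, and 50.4 and 55.7 TPM in old MIT-001. The young PBS libraries differed from each other by more than those of any other group, while both still lay between the other groups. The ratio of means between old MIT-001 and old PBS was 356, with a depth of only 0.293 and 0.564 reads per base in the old PBS libraries behind the smaller value.

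Blnk encodes an adaptor protein that links the B cell receptor to its downstream enzymes, and lies on chromosome 19 from 40928927 to 40994221 (minus strand, Gene ID 17060). It was at 9.15 and 9.59 TPM in young PBS, 1.63 and 1.70 TPM in old PBS, and 15.9 and 14.5 TPM in old MIT-001. Replicates lay close together in all 3 groups, and the groups did not overlap. The signalling chains of the B cell receptor had another profile. Cd79a was at 14.8 and 1.86 TPM in young PBS, 2.63 and 1.36 TPM in old PBS, and 8.78 and 1.67 TPM in old MIT-001. Cd79b was at 12.7 and 3.72 TPM, 0.847 and 1.05 TPM, and 6.09 and 1.72 TPM in the same order. For both chains the 2 old MIT-001 libraries lay within the range of the PBS libraries. Blnk differed 1.10-fold between the 2 old MIT-001 libraries, and its place above all PBS libraries was set by its choice. The part of B cells in the level of Blnk was not tested.

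Plekhb1 encodes a membrane protein with a pleckstrin homology domain, first described in photoreceptors (chromosome 7, 100643896 to 100662394, minus strand, Gene ID 27276). Its values were 15.2 and 17.3 TPM in young PBS, 3.75 and 3.05 TPM in old PBS, and 23.4 and 23.2 TPM in old MIT-001. The step from young PBS to old MIT-001 was the smallest of the 10 genes, with a ratio of means of 1.43, against 6.85 for old MIT-001 over old PBS. After centring each library on its median, the log2 difference to young PBS was 0.08 for Plekhb1 and 0.23 for Blnk, from 0.50 and 0.65 without centring.

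Sequences upstream of these 4 genes are shown because their libraries shared one order, old PBS below young PBS below old MIT-001, and because sequence of their windows lies outside the gene's span. Cdkl1, described below, has the same order, but its window lies within its span in the files and is not shown. They are the parts of the RefSeq promoter windows on GRCm38.p6 (the assembly also called mm10) that lie outside each gene's span in the files, 5′ to 3′ on the gene's strand. Capitals mark matches, on either strand, to the motifs searched: the TATA box (TATAAA), the CCAAT box, the GC box (GGGCGG), the core of the antioxidant response element (TGACNNNGC), a grainyhead motif (AACCNGTT), a forkhead motif (TGTTTAC), the core of an HNF1 motif (GTTAAT) and an ETS motif (AGGAAG). In the sequences shown, no matches overlap each other.
Slc15a2 (chr16:36785159-36785212, minus strand): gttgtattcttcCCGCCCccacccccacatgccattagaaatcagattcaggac
BC048679 (chr7:81498331-81498580, minus strand): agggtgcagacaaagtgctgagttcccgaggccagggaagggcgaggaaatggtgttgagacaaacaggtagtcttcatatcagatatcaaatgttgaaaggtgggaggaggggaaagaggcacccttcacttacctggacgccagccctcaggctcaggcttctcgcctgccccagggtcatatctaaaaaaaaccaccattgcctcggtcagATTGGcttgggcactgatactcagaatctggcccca
Blnk (chr19:40994222-40994471, minus strand): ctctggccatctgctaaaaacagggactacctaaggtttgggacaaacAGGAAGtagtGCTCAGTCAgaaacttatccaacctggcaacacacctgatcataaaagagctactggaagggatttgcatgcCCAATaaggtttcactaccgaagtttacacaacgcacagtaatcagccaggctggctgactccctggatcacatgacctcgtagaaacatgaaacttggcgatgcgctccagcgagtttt
Plekhb1 (chr7:100662395-100662644, minus strand): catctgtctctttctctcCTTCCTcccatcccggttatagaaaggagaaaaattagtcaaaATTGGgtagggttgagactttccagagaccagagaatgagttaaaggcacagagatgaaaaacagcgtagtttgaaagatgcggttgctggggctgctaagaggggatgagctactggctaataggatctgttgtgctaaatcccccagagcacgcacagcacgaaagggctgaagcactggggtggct

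No motif occurred upstream of all 4 genes. For Slc15a2 the 54 bases shown end 196 bases before the RefSeq transcription start, since the span of the gene in the files reaches that far upstream, and they hold a GC box on the reverse strand. The CCAAT box was matched upstream of the other 3. Over the 14 windows of the 8 genes found in the table it was matched in 6, against 33.8% of all 32851 RefSeq windows of 250 bases. The antioxidant response element core was matched for Blnk, at positions -192 to -184 from the start, and also in 1 window each of Cdkl1 and Trim2, which is 3 of 14 windows against 10.2% of all. ETS was matched in 7 of the 14 windows (29.5% of all windows), the GC box in 5 (32.7%) and HNF1 in 1 (6.43%), while the TATA box (12.4%), grainyhead (1.79%) and forkhead (3.17%) had no match. Some genes have several windows, and Calb1 and Ppp2r2b have none in the table. A match describes the letters only.

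Rnf128 and Trim2, which both encode ubiquitin ligases, had the reverse order of the PBS groups. Rnf128 (GRAIL), known for restraining T cell activation, lies on chromosome X from 139563340 to 139673145 (plus strand, Gene ID 66889). It was at 7.49 and 11.1 TPM in young PBS, 16.1 and 21.7 TPM in old PBS, and 56.0 and 44.3 TPM in old MIT-001. Trim2, a TRIM-NHL ligase studied mainly in neurons, lies on chromosome 3 from 84160439 to 84308352 (minus strand, Gene ID 80890). Its values were 7.04 and 9.28 TPM, 21.6 and 21.2 TPM, and 30.3 and 32.3 TPM in the same order. In both genes the groups did not overlap and young PBS was lowest. Trim2 had the smallest step from old PBS to old MIT-001 of the 10 genes, with a ratio of means of 1.46, and Rnf128 followed at 2.66.

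Ppp2r2b, Cdkl1, Calb1 and Klk11 were low in all 4 PBS libraries. Ppp2r2b encodes a B-type regulatory subunit of protein phosphatase 2A that is best known from brain (chromosome 18, 42645221 to 43059471, minus strand, Gene ID 72930). It was at 2.63 and 1.22 TPM in young PBS, 1.58 and 1.82 TPM in old PBS, and 32.4 and 23.0 TPM in old MIT-001. The PBS groups overlapped, and the ratio of means to old PBS was 16.3.

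Klk11 encodes a secreted serine protease of the kallikrein family (chromosome 7, 43774617 to 43779263, plus strand, Gene ID 56538) and had the lowest level of the 10. It was at 0.0848 TPM and listed at 0 in the young PBS libraries, at 0.108 TPM in both old PBS libraries, and at 3.09 and 3.85 TPM in old MIT-001. The lower old MIT-001 library stood 28.6-fold above the highest PBS library, but the PBS values rest on a depth of at most 0.230 reads per base. No fold to young PBS is given because 1 of its libraries was listed at 0.

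Calb1 encodes calbindin-D28k, a calcium-binding protein of neurons and of calcium-transporting epithelia (chromosome 4, 15881264 to 15906709, plus strand, Gene ID 12307). Its values were 2.65 and 1.69 TPM in young PBS, 0.717 and 1.74 TPM in old PBS, and 44.8 and 8.60 TPM in old MIT-001. Calb1 differed most between the old MIT-001 libraries, 5.21-fold higher in replicate 1, so its mean of 26.7 ± 25.6 TPM (SD, n = 2) rests on that library.

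Cdkl1 encodes a cyclin-dependent kinase-like protein linked to cilium length (chromosome 12, 69745167 to 69791196, minus strand, Gene ID 71091). It was at 1.83 and 2.77 TPM in young PBS, 1.02 and 1.63 TPM in old PBS, and 15.0 and 30.9 TPM in old MIT-001. Here replicate 2 was the higher library of old MIT-001, by 2.06-fold. Together with the 4 genes shown by sequence, Cdkl1 made 5 of the 10 with old PBS below young PBS and no overlap, against 353 of the 2490 genes highest in old MIT-001 (14.2%). The opposite order was found in Rnf128, Trim2 and, at values near 0, Klk11, against 38.3% of the 2490. BC048679 and Klk11 passed the filter on low values only through the old MIT-001 libraries. Of the other 8 genes, 4 had the first order and 2 the opposite order. The 2490 were not restricted in this way. The levels of all 6 libraries were known when the genes were chosen, so these counts describe the selection.

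**Figure D1:**
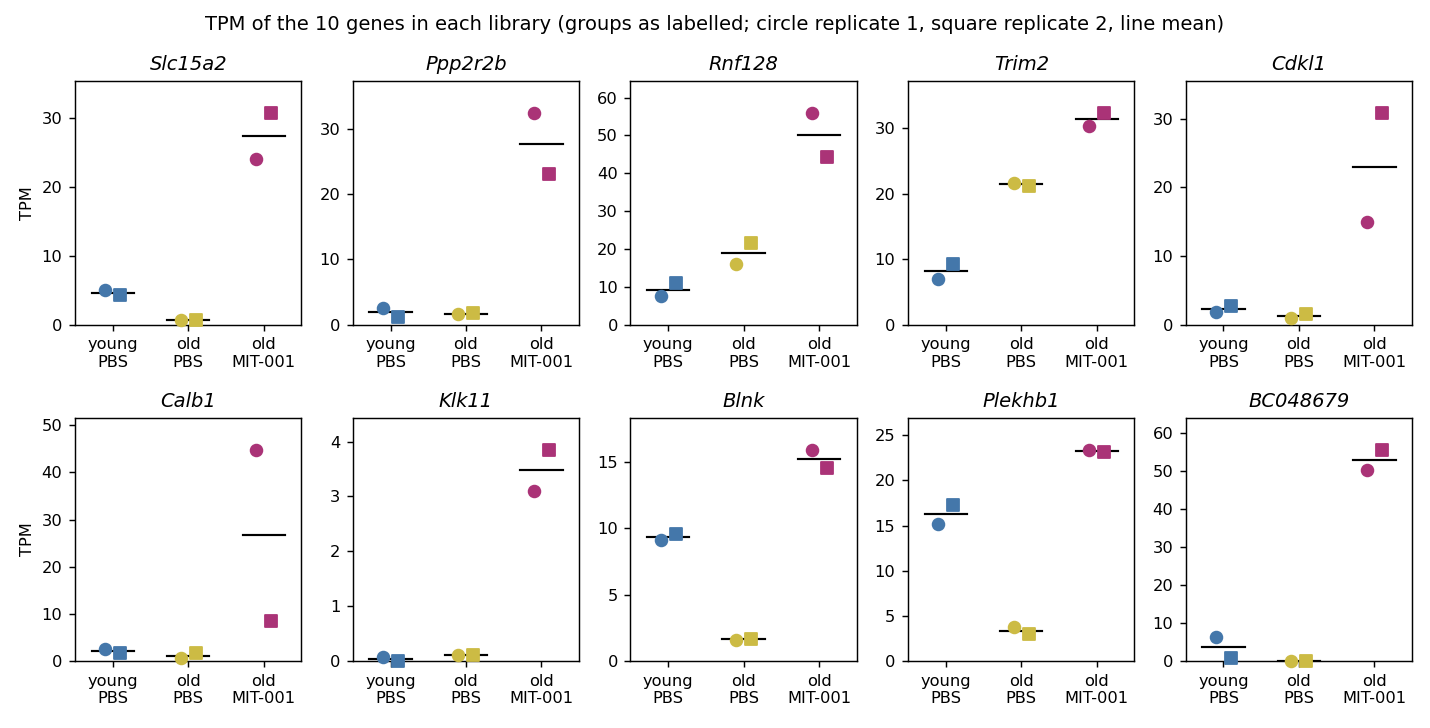
TPM of each gene (vertical axis, linear, from 0) by group as labelled (horizontal axis), with replicate 1 as a circle, replicate 2 as a square and the mean as a line. In all 10 panels both old MIT-001 points lie above the 4 PBS points, and Calb1, at 44.8 and 8.60 TPM, has the widest gap between them.

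The PBS groups were compared to describe how the genes differ between the ages as labelled without treatment; the differences are between PBS libraries only, while the spread behind each p was estimated from all 6 libraries. None of the 10 genes passed limma at an adjusted p below 0.05, where 6 of 16473 genes did (0.0364%). The smallest adjusted p was 0.0957 for Plekhb1, with a log2 fold change (old PBS minus young PBS) of -1.97 ± 0.25 (SE). Blnk at -1.96 ± 0.26 had an adjusted p of 0.107, Slc15a2 at -1.78 ± 0.29 one of 0.155, and Trim2 at 1.30 ± 0.24 one of 0.177 by limma. In a fit of the 4 PBS libraries alone the adjusted p was 0.297 for Plekhb1, 0.305 for Blnk, 0.311 for Slc15a2 and 0.391 for Trim2. At an unadjusted p below 0.05 stood 6 of the 10, adding Rnf128 (0.96 ± 0.29) and BC048679 (-1.72 ± 0.63). Klk11 and BC048679 passed the filter on low values only through the old MIT-001 libraries, and of the other 8 genes 5 had an unadjusted p below 0.05. The share was 18.1% over all genes tested and 14.1% over the 2490 genes highest in old MIT-001. Neither of these sets was restricted to genes that pass the filter in the PBS libraries alone. The levels of all 6 libraries were known when the genes were chosen, so these counts describe the selection.

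The 10 differences between the PBS groups did not share a direction. Among the 5 of 8 genes at an unadjusted p below 0.05 by limma, 3 were lower and 2 higher in old PBS. The median of the 8 was -0.52, against 0.23 over all genes tested. Both medians follow the scaling: after centring each library on its median, the background was -0.09. The median of all 10 genes was then -0.84, from -0.52 without centring. The remaining genes had log2 fold changes of -0.53 ± 0.74 (Calb1), -0.50 ± 0.42 (Cdkl1) and -0.07 ± 0.36 (Ppp2r2b), none at an unadjusted p below 0.05 by limma. Klk11 was too low in the PBS libraries for a difference between them to be detectable. Without replicate 1 of young PBS, 4 of the 10 passed limma, namely Plekhb1 (adjusted p 0.0367), Blnk (0.0392), Trim2 (0.0478) and Slc15a2 (0.0488), but 948 of all genes tested passed as well. Over all alternatives the adjusted p reached 0.867 for each of these 4 genes.

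**Figure D2:**
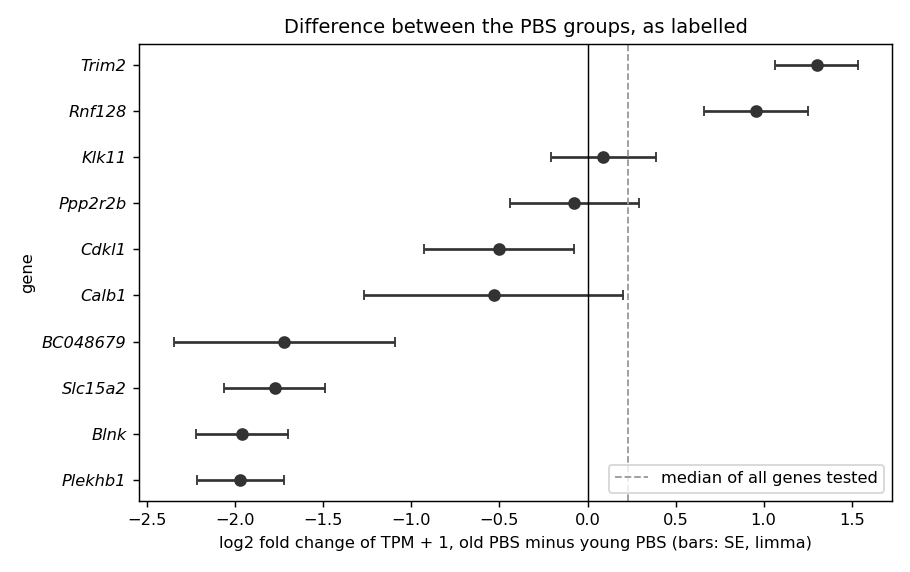
Log2 fold change of TPM + 1 between the PBS groups as labelled (horizontal axis, old PBS minus young PBS, bars are SE from limma) for each gene (vertical axis); the dashed line is the median of all genes tested, 0.23. Plekhb1, Blnk, Slc15a2 and BC048679 lie between -1.97 and -1.72, and Rnf128 and Trim2 at 0.96 and 1.30.

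Relatives of the 10 genes were taken from lists of their families and partners and could be tested in all comparisons. Of 71 such genes 50 passed the filter on low values, and 0 passed limma at the adjusted threshold in any comparison. At an unadjusted p below 0.05 by limma, 7 were higher and 0 lower in old MIT-001 than in old PBS (11.8% of all genes tested, in either direction, and 0.0182% at the adjusted threshold). Against young PBS, 12 were higher and 1 lower in old MIT-001 (17.9% of all genes tested, and 0% at the adjusted threshold). Between the PBS groups 6 were higher and 6 lower in old PBS. For the PBS groups the share over all genes was 18.1%. Both old MIT-001 libraries stood above all PBS libraries in 9 of the 50, near the 15.1% of all genes: Slc15a1, Ppp2r2c, Ppp2r3c, Rnf43, Rnf149, Cdkl3, Atp2b2, Vdr and Klk1.

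Most relatives in the carrier family had other profiles than Slc15a2. Slc15a4, a lysosomal peptide and histidine transporter, lay between 14.8 and 20.5 TPM in all 6 libraries and was thus the most abundant of the family in every PBS library. Slc15a3, its close relative in immune cells, was at 8.32 and 6.56 TPM in young PBS, 2.57 and 1.77 TPM in old PBS and 4.23 and 3.91 TPM in old MIT-001. Slc15a1, the intestinal carrier PEPT1, reached 3.58 TPM in replicate 1 of old MIT-001 and 1.02 TPM in replicate 2, against at most 0.744 TPM in the PBS libraries. Its log2 fold change over old PBS was 1.32 ± 0.44, with an adjusted p of 0.333 by limma. In the old MIT-001 libraries Slc15a2 was the most abundant of the 5 carriers, whereas it was below Slc15a4 and Slc15a3 in every PBS library.

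Among the B-type subunits of protein phosphatase 2A, Ppp2r2c had the profile nearest to Ppp2r2b. Ppp2r2c, another subunit known from brain, was at 1.01 and 3.18 TPM in young PBS, 1.72 and 1.24 TPM in old PBS and 10.9 and 20.7 TPM in old MIT-001. Its log2 fold change over old PBS was 2.70 ± 0.49 (adjusted p 0.124 by limma). The widely expressed subunits stayed far above both: Ppp2r2a lay between 43.6 and 92.2 TPM and Ppp2r2d between 49.8 and 72.2 TPM over all libraries. The catalytic subunit gene Ppp2ca, at 221 to 316 TPM, had a log2 fold change over old PBS of -0.09 ± 0.21.

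Kallikrein genes other than Klk11 were mostly below the filter, as 11 of 13 genes of that list (the inhibitor gene Spink5 among them) did not pass the filter and 5 were listed at 0 in all libraries. Klk1, the tissue kallikrein, was at 5.20 and 7.67 TPM in old MIT-001 and at 0.914 to 4.39 TPM in the PBS libraries. Klk8, the nearest gene tested to the right of Klk11 on chromosome 7, stood between 0.636 and 1.98 TPM in all libraries, with overlapping groups. Trim3 and Trim32, the relatives of Trim2 that could be tested, had log2 fold changes of 0.07 ± 0.31 and -0.21 ± 0.28 between old MIT-001 and old PBS. Plekhb2 had one of -0.04 ± 0.29. That of Plekhb1 was 2.47 ± 0.25, with its direction set by the choice of the gene, so the 2 values are not a test of a difference.

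Calcium-handling partners of Calb1 did not follow a single profile. The vitamin D receptor gene Vdr was at 6.68 and 6.77 TPM in old MIT-001, 1.03 and 1.36 TPM in old PBS and 2.63 and 3.94 TPM in young PBS (log2 fold change over old PBS 1.82 ± 0.31, adjusted p 0.115 by limma). S100g, which encodes the calcium-binding protein calbindin-D9k, was at 27.1 and 4.95 TPM in old MIT-001, with replicate 1 higher as for Calb1, but it reached 44.1 TPM in replicate 2 of young PBS. All 10 B cell receptor partners of Blnk that were tested were higher in old MIT-001 than in old PBS. Their median log2 fold change was 0.58, against 0.03 over all genes tested. Between the PBS groups 1 of the 10 was higher in old PBS, with a median of -0.87 against 0.23 over all genes. In 0 of them did both old MIT-001 libraries stand above all PBS libraries. Among these partners, Lcp2, the corresponding adaptor of T cells and myeloid cells, was highest in young PBS, at 15.3 and 6.62 TPM. Lcp2 was at 2.43 and 2.01 TPM in old PBS and 5.44 and 4.50 TPM in old MIT-001. Syk, the kinase that phosphorylates Blnk, was at 20.8 and 12.7 TPM, 9.93 and 8.14 TPM, and 22.1 and 15.5 TPM in the same order of groups.

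**Figure D3:**
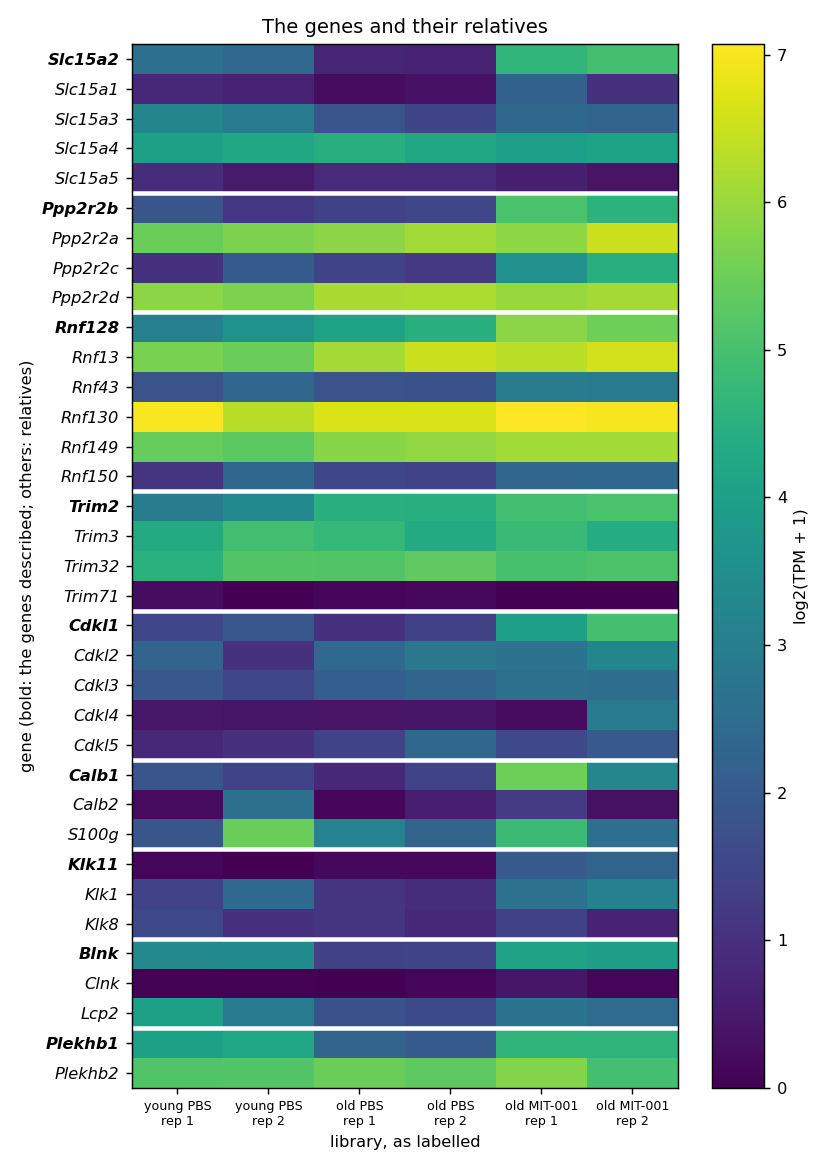
Level as log2(TPM + 1) (colour) of 9 of the genes (bold) and of their relatives (rows) in the 6 libraries as labelled (columns), with white lines between families. Slc15a4, at 14.8 to 20.5 TPM, stays near 1 colour across the libraries, while Slc15a2 runs from 0.629 to 30.7 TPM.

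Epithelial markers were highest in the same libraries as the 10 genes. The 11 surface epithelium markers summed to 744 and 728 TPM in old MIT-001, 214 and 183 TPM in old PBS and 271 and 448 TPM in young PBS. All 13 secretory epithelium markers were found, and their sum was 1046 and 642 TPM in old MIT-001, 52.4 and 50.5 TPM in old PBS, and 142 and 275 TPM in young PBS. In both lists 10 of the 11 genes tested had both old MIT-001 libraries above all PBS libraries, against 15.1% of all genes. Against old PBS, 0 secretory markers passed limma at the adjusted threshold (11 at an unadjusted p below 0.05), and 1 surface marker, Krt18, passed (adjusted p 0.0343). No gene passed limma in that comparison when any old PBS or old MIT-001 library was left out. Markers of follicles had lower values in the same comparison. The median log2 fold change was -2.67 for the 12 oocyte and -1.45 for the 12 granulosa cell markers, against 0.03 over all genes tested. Of these markers 0 passed limma, and 11 oocyte and 9 granulosa cell markers were lower at an unadjusted p below 0.05. At that level stood 11.8% of all genes tested, in either direction. The secretory list holds Pax8, a transcription factor of that epithelium, at 27.9 and 18.3 TPM in old MIT-001 and at 0.178 to 7.06 TPM in the PBS libraries. These lists, the follicle lists included, were chosen with earlier results of the data known, and their part in the levels of the 10 genes was not tested. In bulk tissue, more cells of a type and more RNA per cell cannot be told apart.

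The 2 old MIT-001 libraries differed in other cell markers. The 10 ciliated cell markers summed to 282 TPM in replicate 2 and 17.5 TPM in replicate 1, a 16.1-fold difference, and lay between 16.1 and 37.7 TPM in the PBS libraries. Cdkl1 was higher in the same library, at 30.9 TPM against 15.0 TPM in replicate 1, and the part of ciliated cells in its level was not tested. Its relative Cdkl4 was at 6.42 TPM in replicate 2 and at 0.182 TPM in replicate 1, against 0.291 to 0.374 TPM in the PBS libraries. Smooth muscle markers, at 2637 and 928 TPM, and plasma cell markers, at 1360 and 505 TPM, were higher in replicate 1, as Calb1 was. Of the marker lists, the B cell list differed most in that direction, at 22.0 and 3.97 TPM (5.53-fold). Oocyte, T and NK cell and secretory epithelium sums were also higher in replicate 1, while granulosa cell and kidney tubule sums were higher in replicate 2. Slc15a2, Klk11, BC048679, Trim2, Plekhb1, Blnk, Rnf128 and Ppp2r2b differed between these libraries by 1.41-fold or less, and the surface epithelium sum by 1.02-fold.

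**Figure D4:**
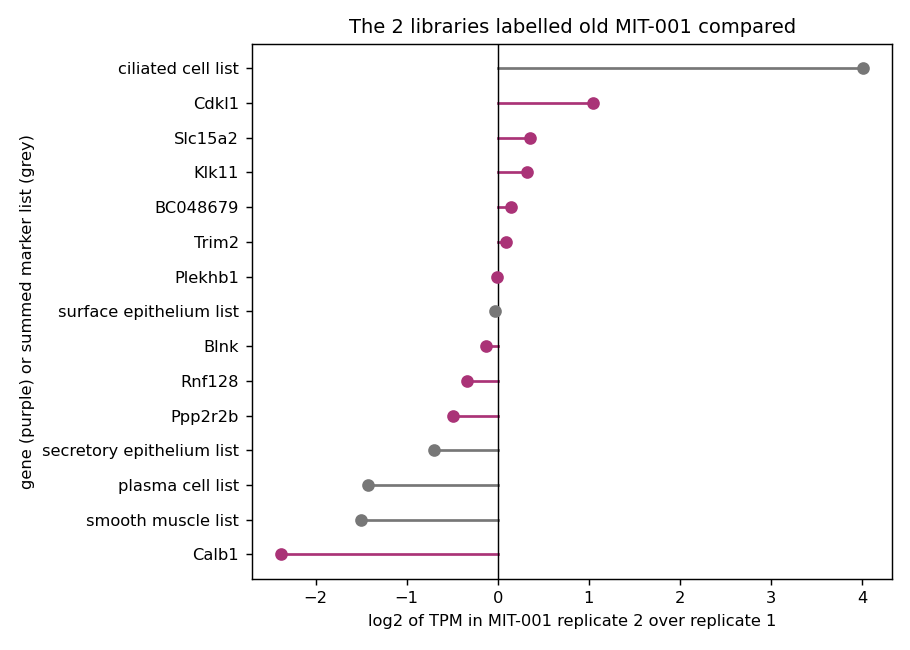
Log2 ratio of TPM in replicate 2 over replicate 1 of old MIT-001 (horizontal axis) for the 10 genes (purple) and for the summed TPM of 5 marker lists (grey) on the vertical axis. Among those drawn, the ciliated list lies farthest right (16.1-fold) and Calb1 farthest left, and most of the genes lie near 0. The B cell list is not drawn.

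The genes most like Slc15a2 were ranked by Pearson's r of log2(TPM + 1) over the 6 libraries, among 1651 named genes with a mean of at least 5 TPM in their highest group and a range of at least 2 on the log2 scale. As 6 libraries in 3 groups share their sources, r is a description. The first was Krt18, a keratin of simple epithelia (r = 0.999), at 49.7 and 48.8 TPM in young PBS, 23.1 and 22.5 TPM in old PBS and 142 and 150 TPM in old MIT-001. Then came Tspan1, a tetraspanin (0.991), Cldn7, a tight junction claudin (0.990), Rab25, a small GTPase of vesicle recycling (0.989), and Krt7, a keratin (0.987). Evpl, which encodes the desmosomal protein envoplakin (0.986), Klf4, a transcription factor (0.986), Cdh1, which encodes E-cadherin (0.985), and Fzd1, a Wnt receptor (0.984), followed. Krt18 and Krt7 are also on the surface epithelium list, and Cldn7 and Cdh1 on the secretory list. Of the chosen genes BC048679 was the nearest to Slc15a2 (r = 0.967, with 18 of the 1651 genes above it) and Trim2 the farthest (r = 0.35).

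Gene neighbours were examined because reads of adjacent or overlapping genes can be confused where the strand setting of the counting is not given. The nearest gene tested on each side of each of the 10 did not overlap it, and 5 of these 20 neighbours had both old MIT-001 libraries above all PBS libraries, against 15.1% of all genes. None of the 20 passed limma at the adjusted threshold in any comparison, and 3, 8 and 5 had an unadjusted p below 0.05 for old MIT-001 against old PBS, old MIT-001 against young PBS and old PBS against young PBS, where 11.8%, 17.9% and 18.1% of all genes did. Ap3b2, which encodes an adaptor protein subunit of vesicle transport known from neurons, begins 277 bp downstream of BC048679 on the same strand. It was at 8.30 and 4.58 TPM in old MIT-001 and at 0.353 to 0.753 TPM in the PBS libraries. Ildr1, which encodes a protein of tricellular tight junctions, lies 23357 bp from Slc15a2 and was at 3.58 and 4.35 TPM in old MIT-001 and at 0.267 to 0.875 TPM in the PBS libraries. Genes that the annotation places within the spans of the 10 were listed at 0.364 TPM or less in every library.

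One further readout of the files was compared, the ratio of the mean read depth to FPKM. It takes a single value in a library for about 30% of genes. Why other genes depart from that value was not examined, and ratios are given relative to it. For Cdkl1 the relative ratio was 0.882 and 0.857 in young PBS, 0.902 and 0.876 in old PBS, and 0.595 and 0.590 in old MIT-001. Both old MIT-001 libraries thus stood apart from the 4 PBS libraries in this measure as well. In Calb1 and Blnk the ratio was 1 in every library. In Ppp2r2b, Rnf128, Trim2, Klk11, Plekhb1 and BC048679 it lay close together across libraries, with the widest range, 0.439 to 0.472, in Trim2. Within these narrow ranges both old MIT-001 libraries lay below the PBS values in Rnf128 and Klk11 and above them in Trim2. Rnf128, at 0.0782 to 0.0802, lay far below the commonest value in every library. Its depth was only 13.2 and 9.62 reads per base in old MIT-001. Slc15a2 had relative ratios of 0.748 and 0.739 in young PBS, 0.900 and 0.925 in old PBS and 0.805 and 0.814 in old MIT-001. How often the groups separate in this ratio over all genes was not counted. Among 14491 genes above 0.5 TPM in every library, 1 had both old MIT-001 libraries more than 0.2 below all PBS libraries (0.0069%), and that gene was Cdkl1. The gap of 0.2 was set after the values of Cdkl1 had been seen. The files give no values per transcript, so whether transcripts differed was not examined.

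**Figure D5:**
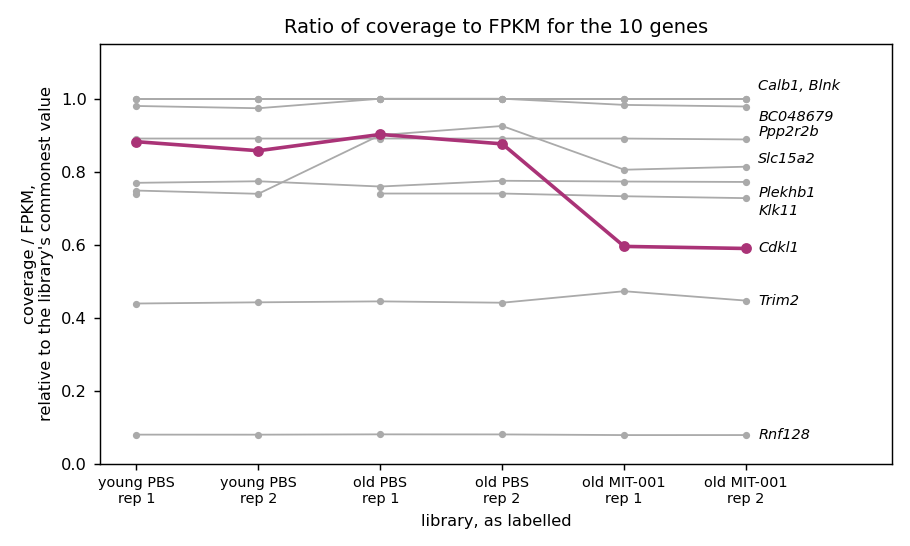
Ratio of mean read depth to FPKM, relative to the commonest value of the library (vertical axis, linear, from 0), for the 10 genes in the 6 libraries as labelled (horizontal axis); lines join the points of a gene and imply no order of libraries. Cdkl1 (purple) lies between 0.857 and 0.902 in the PBS libraries and at 0.595 and 0.590 in the old MIT-001 libraries; Klk11 has no point where it was listed at 0.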

How the data were processed

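Messenger RNA of ovaries was sequenced in 6 libraries, 2 per group. Per the submitters' processing notes, Trimmomatic, HISAT2 and StringTie were used on mm10; their versions, the gene annotation and whether counting used strand were not given in the sources used here. The authors deposited 1 gene table per library with TPM, with FPKM (used for an alternative) and with coverage, a signal giving the mean read depth over a gene. Depth in reads is unknown, and no count model was used. Gene symbols were matched by Gene ID to RefSeq (GRCm38.p6): 98 of 45781 or 45782 rows per library had no match, held at most 0.0301% of TPM, and were left out.

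A gene was tested where 2 or more libraries had a TPM of 1 or higher. Values were log2(TPM + 1), with 1 mean per group over all 6 libraries in limma 3.58.1 (R 4.3.3, intensity trend, 3 residual and 3.12 prior degrees of freedom), two-sided, with Benjamini-Hochberg adjustment across the 16473 genes and calls at an adjusted p below 0.05. The procedure was tested on simulated data. The 10 genes, the lists and the tests were chosen with earlier results of these data known. Named genes were the 10, the 10 with the highest correlation with Slc15a2 (without clone names and pseudogenes), the nearest tested gene on each side, and relatives and markers from the lists, of which some were named after their values were seen. Some of these genes are not reported here. Alternatives were other scalings, filters, pseudocounts, a replicate block, fewer libraries and each library left out.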

Additional observations from a re-analysis of the deposited data

How the results depend on the processing

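With 2 libraries per group, the counts of genes called by limma moved with the settings, and the causes were not tested. For old PBS against young PBS, 6 genes were called (2 higher, 4 lower). The count was 15 with median centring (2 higher, 13 lower), 17 with quantile normalization, 1 without a filter, with the replicate block or without the trend, and 0 in a fit of the 4 libraries compared. Leaving out 1 library gave 0 to 948 genes, with 14 without young PBS replicate 2, and 0 to 4 of the 10 genes. For old MIT-001 against old PBS, 3 genes were called, with 1 from FPKM or median centring, 0 without a filter or with the replicate block, and 356 from the 4 libraries compared. Leaving out 1 library gave 0 to 372 genes there, with 358 and 372 without young PBS replicates 1 and 2 and 0 without any other library. For old MIT-001 against young PBS the count was 0 in all settings run. Where a group is left with 1 library, that library is assumed to vary like the others.

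Replicate numbers were not used to pair the libraries in the main fit. Correlations across genes of the deviations of same-numbered libraries were 0.0066 (young and old PBS), 0.239 (young PBS and old MIT-001) and 0.175 (old PBS and old MIT-001). Whether same-numbered libraries share a batch or source was not tested.

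The direction of the 10 genes in old MIT-001 was set by their choice. Their differences moved by more than the spread between replicates in 29 recomputed values against old PBS and 38 against young PBS. The filter at a TPM of 5 left 9 genes, without Klk11. Between the PBS groups, 143 of the recomputed values kept their direction and side of the threshold, 4 passed it and 2 changed direction: Ppp2r2b ranged from -0.43 to 0.28 with 1 library left out (0.28 without young PBS replicate 1), and Klk11 was -0.23 with median centring. Depth in reads is unknown, so counting error at low TPM could not be stated.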
